A study of Mus musculus with 8 samples.

Results

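To ask where the compartment score moved when G9a and GLP were inhibited in cells that already lacked SUV39H1 and SUV39H2, the score of Suv39h DKO + UNC was compared with that of Suv39h DKO in each 100-kb bin of the autosomes. A bin entered the comparison when it had a score in both libraries and neither score was 0. This gave 23983 of the 24005 bins that were scored in any of the 8 libraries of the series. Of the 22 bins left out, 6 lacked a score in both libraries, and the rest lacked it in 1 of them.

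The scores come from Hi-C of mouse embryonic stem cells (mESCs), a pluripotent cell type, grown with LIF on gelatin. Hi-C counts how often loci touch in fixed nuclei. Suv39h DKO is the line ADF157, which lacks Suv39h1 and Suv39h2, and Suv39h DKO + UNC is the same line given UNC0642, an inhibitor of the catalytic activity of G9a and GLP, at 2 µM for 3 days. The other 6 libraries were Suv39h WT (ADF1-26) and Suv39h WT + UNC, and 4 libraries of a conditional Setdb1 line, namely Setdb1 WT, Setdb1 WT + UNC, Setdb1 KO and Setdb1 KO + UNC. To remove SETDB1, the Setdb1 KO cells received 800 nM 4-OHT for 5 days, and the Setdb1 KO + UNC cells received it for 2 days before UNC0642. Suv39h WT and Suv39h DKO are 1 clone each, so a difference between them may belong to the clone or to the genotype, and the labels do not separate these. The UNC0642 comparison itself stays within 1 clone. Each group has 1 score file, called a library here, so the change between Suv39h DKO and Suv39h DKO + UNC has no replicate of its own. No expression data were used here, so neither the cell type, the deletions nor the inhibition could be checked from the scores.

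Chromosomes fold so that active chromatin (the A compartment) and inactive chromatin (the B compartment) each contact their own kind more than the other. H3K9 dimethylation is laid down mainly by G9a and GLP, H3K9 trimethylation of pericentromeric repeats by SUV39H1 and SUV39H2, and both marks are hallmarks of inactive chromatin at the nuclear lamina. In mESCs the B compartment holds gene-poor regions, long neuronal genes and the large tandem arrays of olfactory and vomeronasal receptor genes, which are silent in these cells.

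The compartment score has no physical unit, and it is positive in A and negative in B. The deposited scores average 0 on each autosome of each library, so a general rise or fall of a chromosome cannot be seen, and only a redistribution among its bins can. The score files hold no counts. Read totals are listed in the study for both Hi-C repeats of each group, with the DKO pair the shallowest in one repeat and Suv39h DKO the deepest in the other, but which repeat or pool a file holds is not stated. The depth behind a score is therefore unknown here. The bins were put into 4 classes from the mean score of the 6 libraries outside the pair. On each autosome, the negative bins below their own median were called deep B (6642 bins) and the rest weak B (6635 bins). The positive bins below their median were called weak A (5357 bins) and the rest strong A (5349 bins).

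Most of the long runs of adjacent bins that rose with UNC0642 lay in tandem gene clusters made of near-identical copies. Sequence from 2 of them is shown first, because duplicated sequence is a feature that most of these runs share. These 2 runs lay about 2 Mb apart on chromosome 7, at chr7:20200001-20700000 and chr7:22100001-22700000 (mm10), and both hold Vmn1r genes, which encode type 1 vomeronasal (pheromone) receptors. RefSeq (GRCm38.p6) lists a promoter window, from 250 bases before to 50 bases after the start, for 13 genes of the first run and 18 of the second. Of the 13, 10 had a partner in the second run that was identical over all 300 bases, and the least similar of the 13 shared 285 bases with its best partner. The Vmn1r pair closest to identity without reaching it and the least similar pair are given below, 5′ to 3′, with the bases that differ between the partners in capitals. Vmn1r242 (chr7:20233779-20234078, minus strand) and Vmn1r252 (chr7:22229435-22229734, minus strand) differed at 1 base. Vmn1r100 (chr7:20417692-20417991, plus strand) and Vmn1r143 (chr7:22189127-22189426, plus strand) differed at 15 bases.
Vmn1r242: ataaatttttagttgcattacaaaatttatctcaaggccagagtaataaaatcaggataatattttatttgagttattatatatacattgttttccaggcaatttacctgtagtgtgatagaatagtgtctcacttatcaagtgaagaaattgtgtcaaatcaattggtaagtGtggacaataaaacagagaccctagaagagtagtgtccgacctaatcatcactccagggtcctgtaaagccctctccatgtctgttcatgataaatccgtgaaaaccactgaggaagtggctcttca
Vmn1r252: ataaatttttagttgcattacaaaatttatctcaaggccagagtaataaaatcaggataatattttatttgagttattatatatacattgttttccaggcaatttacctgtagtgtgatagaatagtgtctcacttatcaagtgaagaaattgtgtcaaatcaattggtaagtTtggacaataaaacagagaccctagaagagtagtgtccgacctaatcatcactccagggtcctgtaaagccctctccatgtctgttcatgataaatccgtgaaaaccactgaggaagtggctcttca
Vmn1r100: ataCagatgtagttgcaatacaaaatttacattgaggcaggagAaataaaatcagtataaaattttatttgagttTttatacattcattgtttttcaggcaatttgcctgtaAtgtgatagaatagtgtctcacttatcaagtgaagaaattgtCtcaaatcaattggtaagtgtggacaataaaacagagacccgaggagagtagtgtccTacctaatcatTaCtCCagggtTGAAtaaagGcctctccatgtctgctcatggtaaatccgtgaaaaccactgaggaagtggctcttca
Vmn1r143: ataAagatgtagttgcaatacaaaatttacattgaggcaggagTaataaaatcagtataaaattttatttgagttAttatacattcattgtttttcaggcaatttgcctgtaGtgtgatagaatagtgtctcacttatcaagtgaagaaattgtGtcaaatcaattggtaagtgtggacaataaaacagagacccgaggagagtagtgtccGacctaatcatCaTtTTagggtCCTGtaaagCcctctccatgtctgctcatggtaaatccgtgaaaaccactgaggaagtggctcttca

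Reads that match several places equally well get a low mapping quality, and the authors kept alignments with a mapping quality above 10. How reads were placed in these copies was not measured. To describe the share of repeated sequence in every bin, about 1 in 16 of the 100-base windows of GRCm38 were sampled. They were picked by their sequence and not by position, so that all copies of a sampled window were kept. A window was called duplicated when its sequence, on either strand, occurred more than once in the genome. The median bin had 2.52% duplicated windows. The run from 20200001 held 97.7% and the run from 22100001 held 97.4%.

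In the pair as a whole, 737 bins rose by at least 0.01 (3.07% of 23983) and 886 fell by at least 0.01 (3.69%). The threshold of 0.01 is the study's own. The median change was 8.76e-05, the middle of the distribution ran from -0.00331 to 0.00343 (quartiles), and the SD was 0.00547. Changes of at least 0.02 were seen in 28 rising and 43 falling bins. The scores of the 2 libraries correlated across bins at r 0.980, and by autosome at 0.964 (chromosome 1) to 0.988 (chromosome 8). For both groups the study lists a correlation of 0.98 between Hi-C repeats, on scores in 100-kb bins. The treated and untreated libraries thus correlated about as well as repeats of 1 group. How much of the change is spread between repeats was not tested. On chromosome 13, 14.5% of bins changed by at least 0.01, and on chromosome 8, 1.74%.

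The split into rising and falling bins depended on the centring. With the mean that each autosome's vector would need for unit length added back to both libraries, 1392 bins rose and 522 fell. With it subtracted from both, 393 rose and 1509 fell. The sign of that mean is not known, so no direction is given for the pair as a whole. The same holds for each class as a whole, since all 4 medians moved together with the centring.

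With the scores as deposited, the median change of each class was smaller than its spread between autosomes, but this did not hold under every setting. The deep B median was -0.0292 in Suv39h DKO and, with UNC0642, -0.0292, and the median change over its bins was 0.00021 ± 0.000694 (SD of the class median over 19 autosomes). It was above 0 on 8 of 19 autosomes. For weak B the medians were -0.0110 and -0.0109, and the median change was 0.000316 ± 0.000729, above 0 on 12 autosomes. For weak A they were 0.0132 and 0.0135, with a median change of 0.000296 ± 0.000755, above 0 on 15 autosomes. For strong A they were 0.0362 and 0.0360, with a median change of -0.000445 ± 0.000651, above 0 on 4 autosomes. With the centring changed as above, all 4 medians exceeded their SD over autosomes. They ran from 0.00125 ± 0.00041 (strong A) to 0.00192 ± 0.000991 (weak B) with the implied mean added, and from -0.00204 ± 0.00115 (strong A) to -0.00126 ± 0.000851 (weak B) with it subtracted. With a fit on GC content removed, strong A was at -0.00101 ± 0.00072 and deep B at 0.000682 ± 0.00068. With classes drawn from Suv39h WT alone, strong A was at -0.000627 ± 0.000573. After quantile normalization weak B was at 0.000276 ± 0.000268. Autosomes are parts of the same 2 libraries and not replicates, so no test was made.

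The share of bins past 0.01 was less even. In deep B 3.79% of bins rose and 3.22% fell, in weak B 3.27% rose and 4.08% fell, in weak A 2.95% rose and 3.86% fell, and in strong A 2.06% rose and 3.63% fell. Together 7.02% of deep B bins changed, against 7.35% of weak B, 6.81% of weak A and 5.68% of strong A bins. In the 3 other UNC0642 pairs, which share no library with this one, deep B changed least often of the 4 classes. With UNC0642 in Suv39h WT, 3.72% of deep B bins changed, against 5.67%, 5.99% and 3.83% of weak B, weak A and strong A. In Setdb1 WT the shares were 3.45%, 10.6%, 13.2% and 5.78% in the same order, and in Setdb1 KO 0.873%, 1.87%, 2.89% and 1.27%. Over all bins 6.77% changed here. In the Suv39h WT pair 4.79% did (2.26% rose and 2.53% fell), in the Setdb1 WT pair 8.13% (3.51% and 4.62%) and in the Setdb1 KO pair 1.69% (0.755% and 0.934%). With 1 DKO pair and 3 others, an exact permutation over pairs cannot go below p = 0.25, so these differences were not tested.

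When the 866 bins with at least 20% duplicated windows were left out, an alternative chosen after seeing the data, deep B became the class that changed least here too. The share of deep B bins past 0.01 was then 4.60% of 6129, against 7.13% in weak B, 6.82% in weak A and 5.68% in strong A. The 866 bins held 513 deep B bins. The corresponding deep B shares were 2.94% in the Suv39h WT pair, 2.87% in the Setdb1 WT pair and 0.669% in the Setdb1 KO pair.

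**Figure D1:**
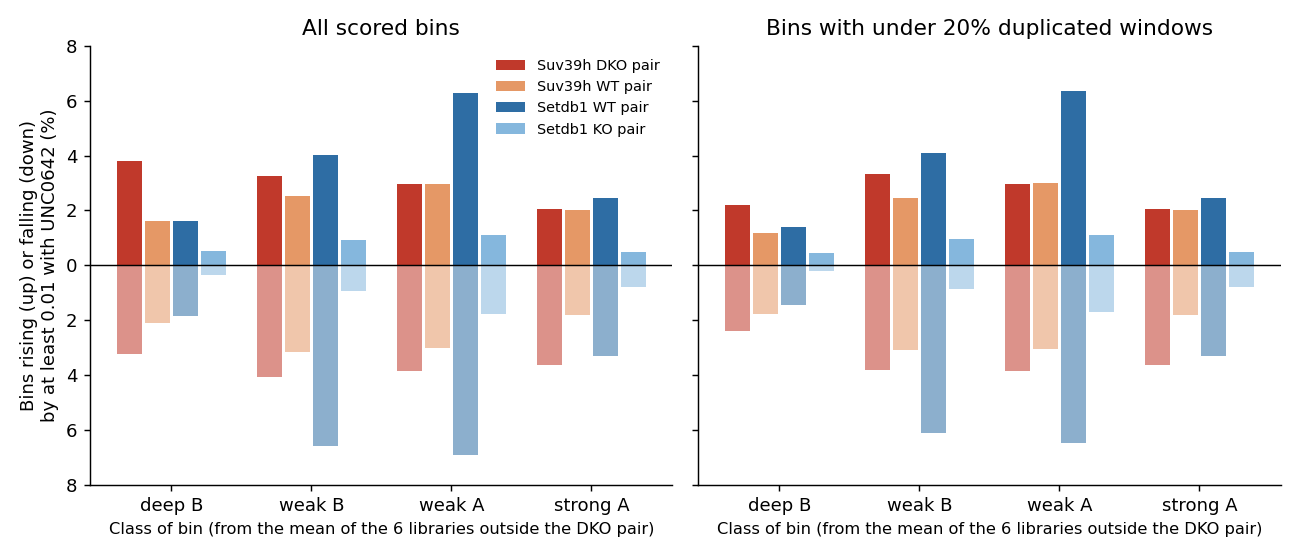
Share of bins (%) rising (dark, upward) or falling (pale, downward) by at least 0.01 with UNC0642, by class of bin, in each of the 4 UNC0642 pairs, 1 library a side, over all scored bins (left) and over bins with under 20% duplicated windows (right). In the Suv39h DKO pair 3.79% of deep B bins rose over all bins and 2.19% without the duplicated ones, while the weak B, weak A and strong A bars barely differ between the panels.

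The rising deep B bins were most frequent where sequence was most duplicated. Of the 207 bins with at least 70% duplicated windows, 200 were deep B and 7 weak B, and 92 rose (44.4%) while 27 fell (13.0%), beside 3.07% and 3.69% of all bins. Their median change was 0.0082, with the 10th and 90th percentiles at -0.0125 and 0.0178. They were 0.863% of the bins and 12.5% of the rises. The rising share was smaller in the less duplicated bins, while the falling share was highest in the next range. Of the 260 bins with 40% to 70% duplicated windows 10.8% rose and 14.2% fell, of the 399 with 20% to 40% 1.5% rose and 8.52% fell, and of the 15136 with under 5% 2.88% rose and 2.99% fell. Among the 64 bins with at least 90% duplicated windows, 68.8% rose.

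**Figure D2:**
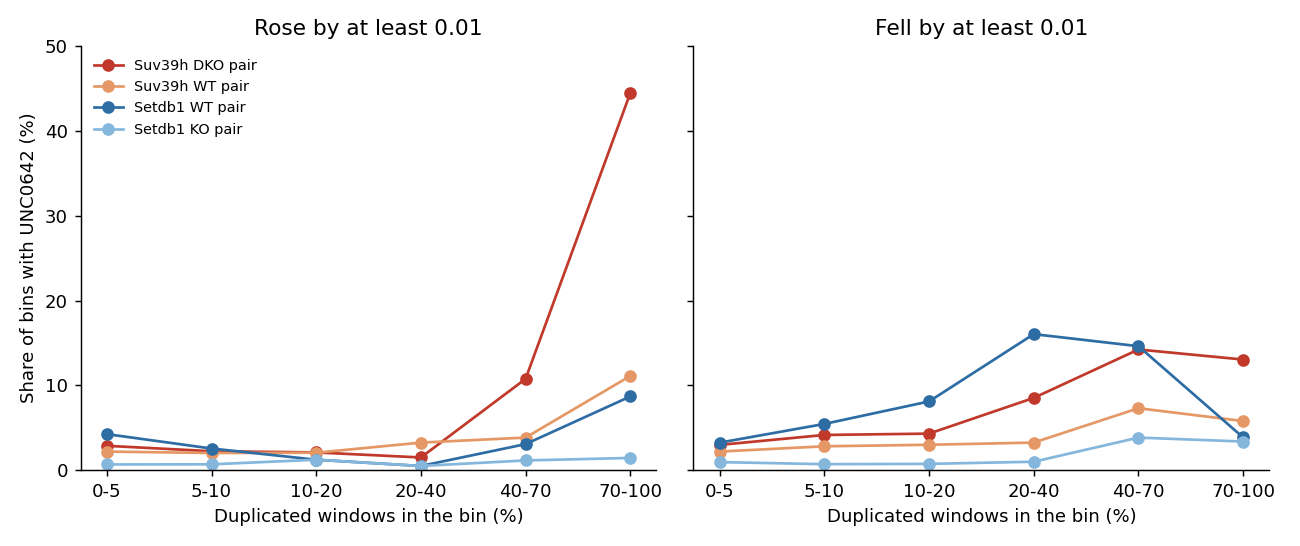
Share of bins (%) rising (left) or falling (right) by at least 0.01 with UNC0642 against the share of duplicated 100-base windows in the bin, in 6 ranges of 207 to 15136 bins, for the 4 UNC0642 pairs. The rising share of the Suv39h DKO pair reaches 44.4% in the highest range, where the Suv39h WT, Setdb1 WT and Setdb1 KO pairs reach 11.1%, 8.70% and 1.45%.

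The median score of these 207 bins differed between the 2 libraries of the pair and among the other 6. The untreated Setdb1 WT library had a median of -0.0521 and its UNC0642 partner -0.0503, Setdb1 KO had -0.0498 and its partner -0.0513. Untreated Suv39h WT had -0.06 and its partner -0.0567, and Suv39h DKO had -0.0659 and its partner -0.0543. Untreated Suv39h DKO was thus the lowest of the 8, and Suv39h DKO + UNC lay between the Setdb1 libraries and the Suv39h WT libraries. Untreated Suv39h WT lay between the 2 libraries of the pair. Suv39h DKO held the lowest score of the 8 libraries in 113 of the 207 bins (54.6%), against 14.4% of all bins. The median distance from the mean of the other 6 libraries was -0.0111 in Suv39h DKO and, with UNC0642, -0.00137. Suv39h DKO + UNC was the closer of the pair in 162 bins (78.3%), against 50.4% of all bins. Most of those 6 libraries are of the Setdb1 line, so closeness to their mean depends in part on the cell line. Bins chosen for a change must differ between the 2 libraries, so the next counts are a description only. Of the 92 bins that rose, Suv39h DKO was the farther from that mean in 90, and of the 27 that fell in 12. Of the 611 rising bins with under 20% duplicated windows it was the farther in 309 (50.6%).

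**Figure D3:**
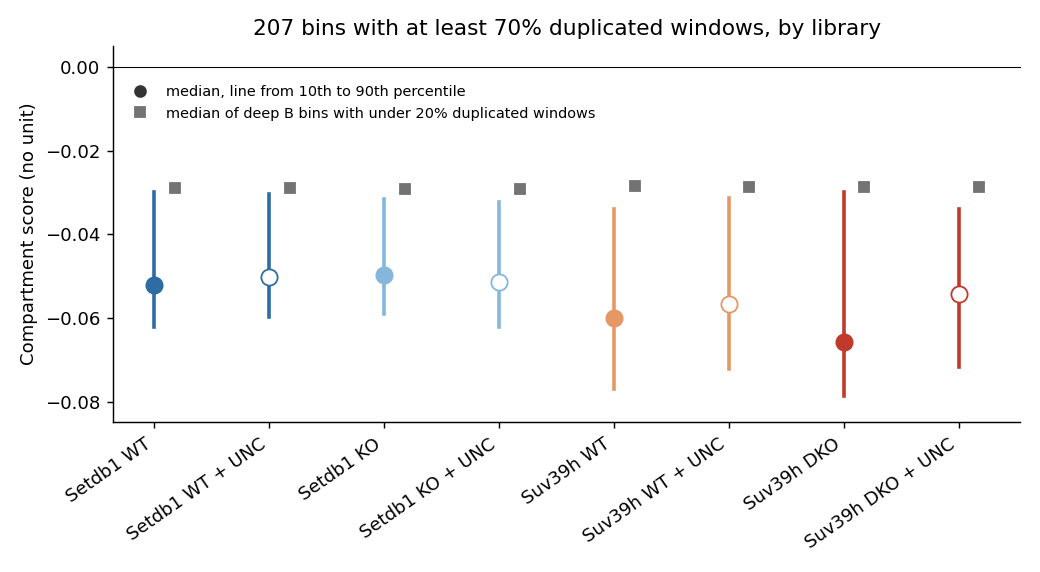
Compartment score (no unit) of the 207 bins with at least 70% duplicated windows in each of the 8 libraries, with circles for the median (filled, no UNC0642, open, with UNC0642) and lines from the 10th to the 90th percentile. Grey squares are the median of deep B bins with under 20% duplicated windows, which stay between -0.0284 and -0.0293, while the circles run from -0.0659 in Suv39h DKO to -0.0498 in Setdb1 KO.

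These bins lay at the bottom of their autosomes in every library. Their median percentile within the autosome ran from 1.28 in Setdb1 WT + UNC to 1.45 in Suv39h DKO, and it was 1.41 in Suv39h DKO + UNC. At this end of the distribution the percentile has little room to move. Once the scores of Suv39h DKO + UNC were given the distribution of Suv39h DKO on each autosome, the median change of the 207 bins was 0 and 13.5% rose, against 2.75% of all bins under the same setting. In Suv39h DKO 151 bins lay at or below -0.06, of which 125 were among the 207, and in Suv39h DKO + UNC 69, of which 57 were. In the other libraries the number ran from 18 (Setdb1 KO) to 120 (Suv39h WT).

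Other bins of low score did not show it. Between -0.06 and -0.045 on the mean of the other 6 libraries there were 116 bins with at least 70% duplicated windows and 96 with under 20%. Of the 116, 69 rose (59.5%) and 7 fell, with a median change of 0.0123. Of the 96, 3 rose (3.13%) and 5 fell, with a median change of 0.000186, and their median score was -0.0488 in Suv39h DKO and, with UNC0642, -0.0493. The 2 sets were not equally deep, since their medians on the other 6 libraries were -0.0547 and -0.0468. The 116 bins lay on 10 autosomes and the 96 on 6. Autosomes differ in scale, with an SD of the Suv39h DKO score from 0.0222 (chromosome 2) to 0.0408 (chromosome 19). A change of 0.01 is thus not the same step in both sets.

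The autosomes differed. On chromosome 7, 33 of 51 such bins rose and 4 fell, with a median change of 0.0141. On chromosome 5, 19 of 25 rose and none fell, and on chromosome 4, 13 of 26 rose and 1 fell. On chromosome 14, which held the most (56 bins), 17 rose and 14 fell, with a median change of 0.00297. Without chromosome 7, 37.8% of the remaining 156 bins rose. How many reads each library could place in these bins is not in the files, so the part of read placement and of sequencing depth in this result was not tested.

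Runs of at least 2 adjacent bins that each changed by at least 0.01 in 1 direction numbered 66 rising and 75 falling. Of the 10 rising runs of 3 bins or more, 9 held at least 70% duplicated windows on average and none held under 20%. Of the 15 falling runs of 3 bins or more, 12 held under 20% and none at least 70%. Among all 23983 bins, 23117 held under 20% and 207 at least 70%. A rising run was chosen for a Suv39h DKO score below that of Suv39h DKO + UNC, which favours a low Suv39h DKO. It had the lowest mean score of the 8 libraries in 19 of the 20 rising runs with at least 70% duplicated windows and in 24 of the 39 with under 20%.

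The longest rising run, chr7:22100001-22700000, covered 6 bins and 18 protein-coding genes of the GENCODE annotation, among them Vmn1r142, Vmn1r143, Vmn1r152 and Vmn1r155. Giving each untreated library before its UNC0642 partner, its mean score was -0.0539 and -0.0533 for Setdb1 WT, -0.0545 and -0.0548 for Setdb1 KO, -0.0563 and -0.0585 for Suv39h WT, and -0.0691 and -0.0532 for Suv39h DKO. The first 6 values and the last lay within 0.01 of each other, and Suv39h DKO alone lay below them. The mean change of the run was 0.0159.

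Its near copy, chr7:20200001-20700000, with Vmn1r100, Vmn1r101, Vmn1r104 and Vmn1r107, covered 5 bins. In the same order of libraries its mean score was -0.0554, -0.0534, -0.0529, -0.0547, -0.0615, -0.0566, -0.0698 and -0.0536, a mean change of 0.0162. Here too Suv39h DKO was the lowest and Suv39h DKO + UNC was level with the Setdb1 libraries. Because the genes are near copies, the 2 runs are not independent regions. Of the 8 longest rising runs, 3 more lay on chromosome 7, with mean changes of 0.0180 (chr7:23000001-23300000, Vmn1r163, Vmn1r165 and Vmn1r166), 0.0156 (chr7:20900001-21200000, Vmn1r118 to Vmn1r123) and 0.0141 (chr7:9100001-9400000, Vmn2r37, a type 2 vomeronasal receptor).

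The remaining 3 of the 8 longest rising runs, on chromosomes 4 and 5, hold other families. RefSeq places Pramel genes, relatives of the human tumour antigen PRAME, in the 2 on chromosome 5. The run chr5:93800001-94300000 (5 bins, Pramel35 to Pramel38 and Pramel40) had a mean score of -0.0718 in Suv39h DKO and, with UNC0642, -0.0581, a change of 0.0138. Its values in the other 6 libraries ran from -0.0632 (Suv39h WT) to -0.0527 (Setdb1 KO). The run chr5:95200001-95800000 (6 bins, with Pramel46 to Pramel50) went from -0.0698 to -0.0571, a change of 0.0127. On chromosome 4 the run chr4:61100001-61500000 (4 bins) holds Mup13, Mup14 and Mup15, which encode major urinary proteins, the carriers of pheromones in mouse urine. It went from -0.0703 to -0.0580, a change of 0.0122, and its other 6 values ran from -0.0594 to -0.0537.

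**Figure D4:**
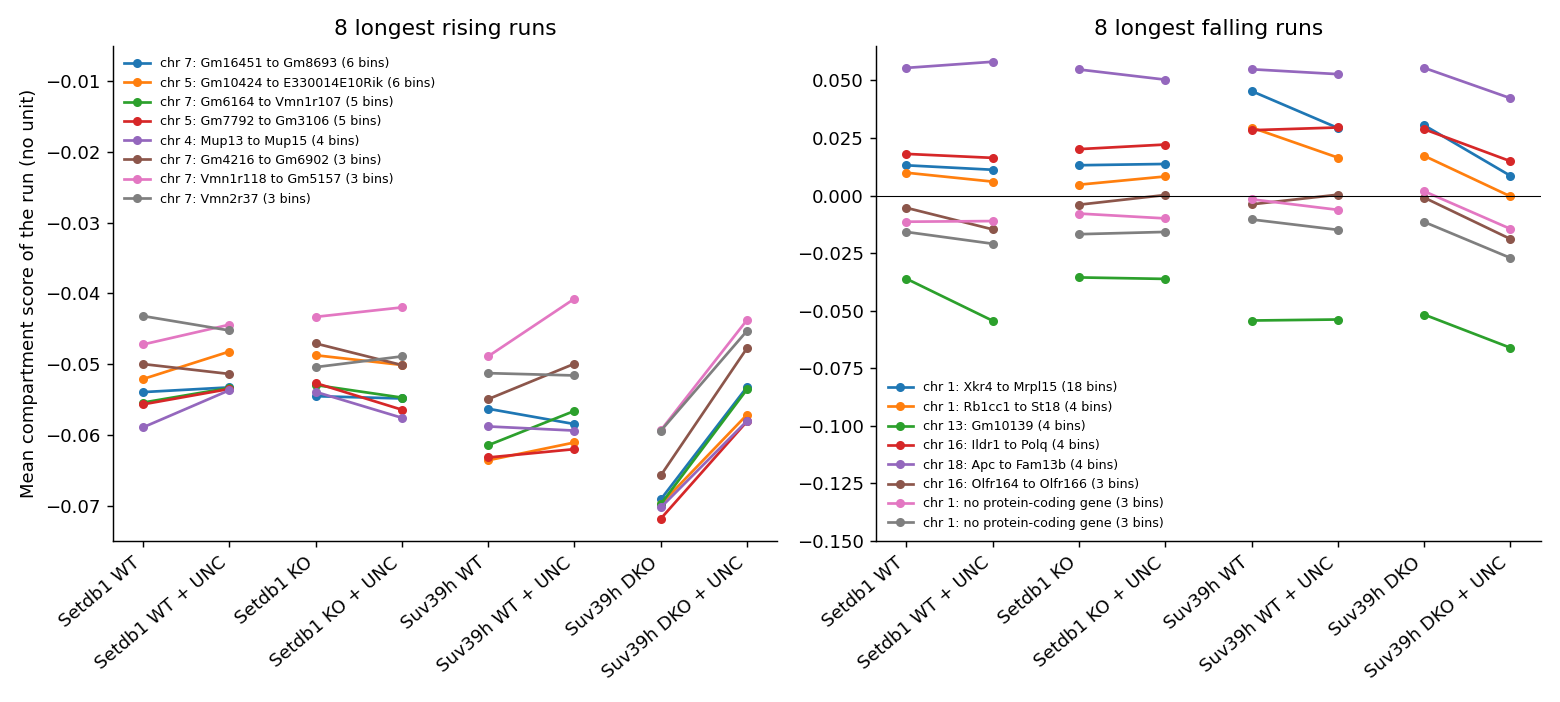
Mean compartment score (no unit) of the 8 longest rising (left) and the 8 longest falling runs (right) in each of the 8 libraries, with a line joining each untreated library to its UNC0642 partner and runs named by their first and last protein-coding gene in GENCODE. On the left all 8 runs are lowest in Suv39h DKO, between -0.0718 and -0.0594, and on the right the chromosome 1 run from Xkr4 to Mrpl15 runs from 0.0454 in Suv39h WT to 0.00864 in Suv39h DKO + UNC while the 4 Setdb1 libraries stay between 0.0112 and 0.0137.

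Of all falling runs 65 of 75 held under 20% duplicated windows, and of all rising runs 39 of 66, beside 23117 of all 23983 bins. The longest falling run covered the first 18 scored bins of chromosome 1, chr1:3000001-4800000, with 5.37% duplicated windows. It holds Xkr4, Rp1 (a photoreceptor microtubule protein), Sox17 (a regulator of endoderm) and Mrpl15 (a mitochondrial ribosomal protein). Its mean score, again untreated before UNC0642, was 0.0132 and 0.0112 for Setdb1 WT, 0.0132 and 0.0137 for Setdb1 KO, 0.0454 and 0.0294 for Suv39h WT, and 0.0306 and 0.00864 for Suv39h DKO. The Suv39h WT library was highest, Suv39h WT + UNC and Suv39h DKO lay close together, and Suv39h DKO + UNC was lowest. The UNC0642 change was -0.0219 in Suv39h DKO and -0.016 in Suv39h WT, both below the 2 changes of the Setdb1 line, -0.00193 and 0.000555. In single bins of the run the change in Suv39h DKO lay between -0.0286 and -0.0151.

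The fall extended beyond the run. Over the first 30 Mb of chromosome 1, 78 of 270 bins fell and 5 rose in the Suv39h DKO pair, with a median change of -0.00527, and 80 fell and 3 rose in the Suv39h WT pair, with a median of -0.00585. In the Setdb1 WT pair 25 fell and 2 rose, and in the Setdb1 KO pair 6 fell and 1 rose. The falling runs chr1:6200001-6600000 (Rb1cc1, an autophagy initiation factor, Alkal1 and St18), chr1:27100001-27400000 and chr1:30500001-30800000 (no protein-coding gene in the last 2) lay in or next to this stretch, with mean changes of -0.0176, -0.0156 and -0.0163. Because a chromosome's scores average 0, a lower start has to be offset elsewhere, and the rest of chromosome 1 had a median change of 0.00125 in the Suv39h DKO pair.

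The other 4 of the 8 longest falling runs lay on chromosomes 13, 16 and 18. The run chr16:36700001-37100000, from Ildr1 to Polq (DNA polymerase theta, of end joining) and with Golgb1 (the Golgi protein giantin), went from 0.0289 in Suv39h DKO to 0.0150. Suv39h WT was at 0.0284, Suv39h WT + UNC at 0.0296, and the 4 Setdb1 libraries between 0.0164 and 0.0222, so only Suv39h DKO + UNC moved away within the Suv39h lines. The run chr18:34100001-34500000 holds Apc, which restrains Wnt signalling, Srp19, Reep5, Pkd2l2 and Fam13b. It went from 0.0555 to 0.0423, below the range of the other 7 libraries, 0.0504 to 0.0581. The olfactory receptor run chr16:19200001-19500000, Olfr164 to Olfr166, went from -0.000840 to -0.0188. Setdb1 WT + UNC was also low there (-0.0147), and the other 5 lay between -0.00530 and 0.000394. The run chr13:65500001-65900000 (Gm10139) went from -0.0516 to -0.0661, with 64.9% duplicated windows, and it fell by 0.0183 with UNC0642 in Setdb1 WT as well.

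No bin passed a test of its own. The limma fit drew the spread from the UNC0642 changes of the 3 other backgrounds, with 2 residual degrees of freedom over the 23972 bins scored in all 8 libraries, and it assumes that the lone DKO pair varies like them. At a Benjamini-Hochberg adjusted p of 0.05, limma called 0 bins (0%), with a lowest adjusted p of 0.232. In 3 of 10 alternative fits 1 or 2 bins passed, chr14:3500001-3600000 in all 3 of them and chr12:19500001-19600000 in 2, with adjusted p from 0.0190 to 0.0392. At an unadjusted p under 0.05 it counted 1645 bins (6.86%), 784 higher and 861 lower. For the difference between the UNC0642 change in Suv39h DKO and that in the other 3 backgrounds, limma also called 0 bins, with a lowest adjusted p of 0.544 and 1329 bins (5.54%) at an unadjusted p under 0.05. The 11 members that the fit drops all have at least 70% duplicated windows. In the 196 such bins that were fitted, the median UNC0642 coefficient was 0.00768, against 0.000104 in the 23117 bins with under 20% duplicated windows. That coefficient is the change already described for these bins, so it is no further test of them. For the difference between backgrounds the median was 0.00577 in the 196 bins and 1.92e-05 in the 23117.

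The bin with the lowest p, chr14:3500001-3600000 (Gm3005, 98.3% duplicated windows), scored, untreated before UNC0642, -0.0635 and -0.0596 for Setdb1 WT, -0.0608 and -0.0601 for Setdb1 KO, -0.0808 and -0.0786 for Suv39h WT, and -0.0807 and -0.0447 for Suv39h DKO. In contrast to the chromosome 7 clusters, it was Suv39h DKO + UNC that stood apart here. The same duplicated stretch of chromosome 14 also held 3 of the 5 largest falls, with changes of -0.0328 (chr14:4500001-4600000), -0.0303 (chr14:5400001-5500000) and -0.0282 (chr14:4700001-4800000). The largest rise of all, 0.0399 at chr12:19500001-19600000 (69.3% duplicated windows, no protein-coding gene), went from -0.0711 to -0.0312, and the other 6 libraries lay between -0.0456 and -0.0189. Among the 5 largest rises, 1 lay in a bin with little duplicated sequence (1.55%), a rise of 0.0270 at chr14:40900001-41000000 (Tspan14, a tetraspanin, and Fam213a), from 0.00753 to 0.0346. Its other 6 values ran from 0.0216 to 0.0308, so that Suv39h DKO was low there.

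Most bins that changed sign lay near 0. From Suv39h DKO to Suv39h DKO + UNC, 526 bins went from B to A (2.19%, 95% Wilson interval 2.02% to 2.39%) and 460 from A to B (1.92%, 1.75% to 2.10%), and 22997 kept their sign (95.9%, 95.6% to 96.1%). The intervals cover counting error only, and neighbouring bins are not independent. The processing moved these shares by more than the intervals. B to A and A to B were 3.74% and 1.66% with the implied mean added to both libraries, 1.37% and 2.81% with it subtracted, and 5.72% and 5.88% with a fit on GC content removed. Of the 986 bins that switched, 729 (73.9%) had a Suv39h DKO score within 0.005 of 0, and 218 changed by at least 0.01. Among deep B bins 1 switched on either count (A to B), and among strong A bins none did. Weak B gave 339 of the B to A and 271 of the A to B switches, and weak A 187 and 188.

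Bins near the distal chromosome ends had the higher changes, in all 4 classes. Mouse autosomes are telocentric, so that the scored length runs from the centromere to the distal end. In the last 10 Mb the median change was 0.0019 over 1885 bins, against -6.87e-05 in the rest, and it was above the rest on 18 of 19 autosomes, all but chromosome 15. By class, the median in the last 10 Mb was 0.000982 in deep B, 0.0019 in weak B, 0.00216 in weak A and 0.00191 in strong A. In the Suv39h WT pair the last 10 Mb lay above the rest on 13 autosomes (median change 0.000449), in the Setdb1 WT pair on 16 (0.00116) and in the Setdb1 KO pair on 6 (-0.000142). The first 10 Mb showed no common direction here, with a median of 5.77e-05 and 11 autosomes above the rest, whereas it was above the rest on only 2 autosomes in the Setdb1 WT pair.

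**Figure D5:**
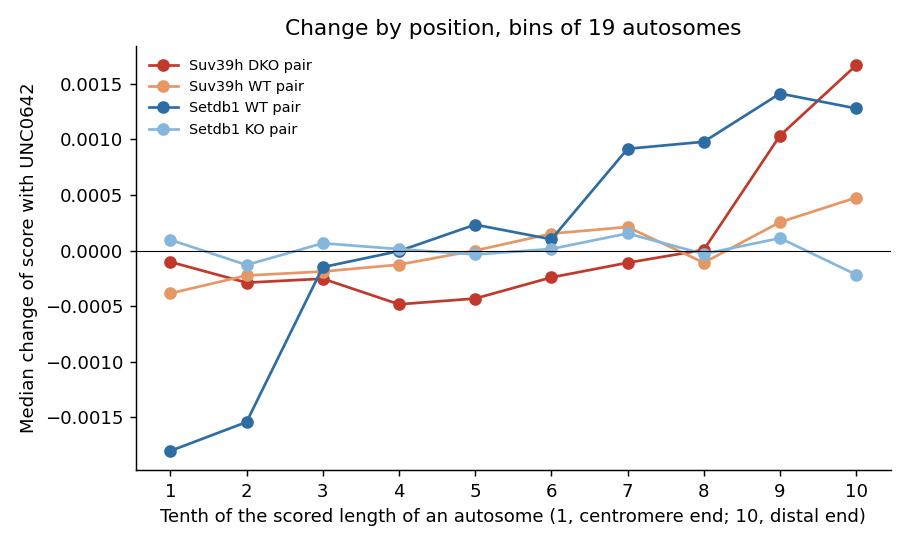
Median change of the compartment score with UNC0642 (no unit) by position along the 19 autosomes, cut into 10 equal parts of the scored length from the centromere end (1) to the distal end (10), for the 4 UNC0642 pairs. The Suv39h DKO line stays between -0.000483 and 6.52e-06 in parts 1 to 8 and reaches 0.00103 and 0.00167 in parts 9 and 10.

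The GC content of a bin went with the change weakly. Across bins the correlation with the change was 0.0869, and within classes it ran from 0.156 (weak B) to 0.251 (strong A). The median change went from -0.000655 in the 20% of bins with the lowest GC content to 0.000631 in the 20% with the highest. The same correlation was 0.0874 in the Suv39h WT pair, 0.175 in the Setdb1 WT pair and -0.110 in the Setdb1 KO pair. Neighbouring bins share composition and reads, so no p is given. The change had little in common with the UNC0642 changes of the other pairs, with r across bins of 0.0702 for Suv39h WT, 0.0429 for Setdb1 WT and 0.0136 for Setdb1 KO.

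The genes of the H3K9 methylation machinery lay mostly in A, and few of their bins changed, as in the background. Of 23 genes listed, 22 lie on autosomes (Suv39h1 is X-linked and X was not scored), and of their 42 bins none rose and 1 fell (2.38%), beside 3.07% and 3.69% of all bins, with 37 in A. The Ehmt2 bins (G9a) scored 0.0617 in Suv39h DKO and, with UNC0642, 0.0577, and the Ehmt1 bins (GLP) 0.0239 and 0.0214. Suv39h2, one of the deleted genes, lay at 0.00598 and 0.00909, which says nothing about its deletion. Setdb1 went from 0.0497 to 0.0532. Kdm3a, which removes H3K9 dimethylation, had the lowest change of the list, from 0.0411 to 0.0316, and Cbx3, an HP1 protein, the highest, from 0.0426 to 0.0474. The gene averages both moved by under 0.01, and the 1 bin that fell was the distal of the Kdm3a bins, by 0.0115. The median change of the 42 bins was 0.000413, beside 8.76e-05 over all bins.

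Of the other short lists, the counts were too small to set them apart from the background of 3.07% rising and 3.69% falling. All 16 pluripotency genes lay in A in both libraries, and none of their 19 bins changed by 0.01 (median change 0.00218). Pou5f1 went from 0.0660 to 0.0608, Nanog from 0.0288 to 0.0310 and Sox2 from 0.0358 to 0.0425. Of 32 bins of 23 germline genes, none rose or fell by 0.01, with a median change of 0.000181. Of 32 bins of 26 lineage regulators (median change 0.00163) 1 fell, that of Sox17 in the chromosome 1 run, from 0.0317 to 0.0135. Foxa2, a regulator of endoderm, went from -0.0104 to -0.000539, just short of the threshold. Of 18 bins of 20 genes of the 2-cell stage, among them the Zscan4 genes, 2 fell, those of Tcstv1 (0.0196 to 0.00904) and Tcstv3 (-0.00191 to -0.0123). The median change of the 18 bins was -0.0015, and the Zscan4e bin went from -0.0308 to -0.0261.

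Receptor families are given with how duplicated their bins were, and no difference between families was tested. Of 97 bins with type 1 vomeronasal receptors, 13 rose (13.4%) and 7 fell (7.22%), beside 3.07% and 3.69% of all bins, with a median change of 0.000203. Of the 14 of them with at least 70% duplicated windows 10 rose and 1 fell. Of all 207 bins that duplicated, 44.4% rose and 13.0% fell. Among genes with a Vmn1r symbol in GENCODE, the largest rises were those of Vmn1r118 (-0.0631 to -0.0418) and Vmn1r152 (-0.0695 to -0.0487), and the largest fall that of the bin with Vmn1r114 and Vmn1r115 (-0.0383 to -0.0532), which is 77.2% duplicated. Of 114 bins with type 2 vomeronasal receptors 8 rose and 11 fell (median change -0.00197), and of the 11 with at least 70% duplicated windows 6 rose and 2 fell. Vmn2r21 went from -0.102 to -0.0858, with the other 6 libraries between -0.0940 and -0.0766. Vmn2r100, in a bin with 8.87% duplicated windows, fell from -0.0145 to -0.0325. Of 342 bins with olfactory receptors, of which 1 had at least 70% duplicated windows, 3 rose (0.877%) and 21 fell (6.14%), with a median change of -0.000311. The 3 rising bins hold Olfr9, Olfr1359 and the group Olfr180, Olfr181 and Olfr183. In the Suv39h WT pair 4 of these bins rose and 6 fell, in Setdb1 WT 1 and 42, and in Setdb1 KO 1 and 3.

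The other clusters were mixed, and their counts stand beside 3.07% rising and 3.69% falling of all bins. Of 365 bins with Zfp genes, which encode zinc-finger proteins, many of them repressors of transposons, 10 rose and 19 fell, with a median change of -0.000573. Zfp26 and Zfp426, neighbours in 1 bin, went from -0.00651 to 0.0117, and Zfp972 from 0.000613 to -0.0172. Of 22 defensin bins (antimicrobial peptides) 4 rose and none fell, while the median change was -0.00281. The 4 were the bin of Defa36 (-0.0700 to -0.0560), that of Defa3 and Defa5 (-0.0646 to -0.0508), that of Defa22, Defa30 and Defa31 (-0.0668 to -0.0532), and that of Defb30, Defb42, Defb43 and Defb47 (0.0316 to 0.0417). The first 3 held from 53.0% to 68.5% duplicated windows and the last 0.458%. Of 33 bins with keratin genes 1 rose, that of Krt14, Krt16, Krt17 and Krt42 (0.0119 to 0.0323), and 2 fell, those of Krt6a and Krt6b (0.0143 to 0.00241) and of Krtap28-10 and Krtap28-13 (0.00168 to -0.00878). Their median change was 0.000461. Of 10 bins of replication-dependent histone genes 2 rose and none fell, with a median change of 0.00416. They were the bin with Hist1h4j and Hist1h4k, which also holds Olfr1359 (0.0160 to 0.0302), and the bin from 23500001 on chromosome 13 with Hist1h4h and Hist1h1d (0.0254 to 0.0354). The 9 Hox bins and the 10 clustered protocadherin bins had no change of 0.01, with median changes of 0.00465 and -0.00361, and Hoxb13 was the nearest to it (0.0257 to 0.0349).

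Long neuronal genes lay mostly in B. Of 501 bins in 35 genes, 27 of them in A in Suv39h DKO, 4 rose (0.798%) and 23 fell (4.59%), beside 3.07% and 3.69% of all bins, with a median change of -5.78e-05. The 4 rising bins lay in Ctnna2, Cntn5, Nrxn3 and Nrg3, which encode proteins of neuronal adhesion and signalling. Galntl6, averaged over its 13 bins, had the largest rise of the list, from -0.0308 to -0.0285. Of 71 bins with ribosomal protein genes, 68 in A, 2 rose (2.82%, beside 3.07% of all bins), those of Rpl14 (0.0219 to 0.0350) and Rpl15 (0.00559 to 0.0156), and none fell, with a median change of -0.000484.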

How the data were processed

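Compartment scores from Hi-C of 8 groups of mouse embryonic stem cells were used, with 1 score file for each group, called a library here. Chromatin was cut with DpnII, and the authors kept read pairs with a mapping quality above 10. The deposited compartment scores were computed by the authors with Juicer from KR-balanced contact maps within each autosome, in 100-kb bins, and positive scores are A. Per the submitters' processing notes, Juicer and the mm10 build were used. That each autosome of each library averages 0 was found from the values themselves. The mean an eigenvector of unit length would then lack was computed, and its sign is unknown. Which Hi-C repeat, or pool of repeats, each file holds is not given in the sources used here, so the listed read totals could not be assigned. The study's correlation between repeats covers all bins together, so no precision can be stated for a single bin.

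From these scores the change in each bin was taken as Suv39h DKO + UNC minus Suv39h DKO. The members, lists and regions were chosen with earlier results of these data known. The shares of bins that changed sign carry 95% Wilson intervals. The limma 3.58.1 test (R 4.3.3) had the background as a block, UNC0642 in Suv39h DKO and UNC0642 in the 3 other backgrounds as coefficients, and Benjamini-Hochberg adjustment over 23972 bins. The fit was also run on simulated data with equal noise in all bins and libraries. That run cannot show whether the lone DKO pair varies like the others. Other steps used Python 3.11.15 and pandas 2.3.3. The named regions are the 8 longest runs in each direction, where a run is 2 or more neighbouring bins past 0.01 with 1 sign, ties going to the larger mean change. From each gene list or family the 2 largest rises and 2 largest falls could be named, together with the whole H3K9 machinery list. Pluripotency genes, the 5 largest bins each way and bins behind counts of 5 or fewer were named after their values were seen. Genes came from GENCODE (20807 protein-coding genes on autosomes) and promoters from RefSeq (GRCm38.p6). Alternatives changed the centring, scale, distribution, bin size, GC content, class borders, chromosome ends and limma settings. Those on duplicated sequence, on single autosomes and on the last 10 Mb were chosen after seeing the data.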

Additional observations from a re-analysis of the deposited data

Results flagged for a closer look

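With the scores as deposited, the median UNC0642 change had opposite signs in 2 backgrounds for several sets of bins, and none of these differences was tested, since each pair has 1 library a side. In the 207 bins with at least 70% duplicated windows the median change was 0.0082 in Suv39h DKO and -0.00128 in Setdb1 KO. In deep B it was 0.00021 in Suv39h DKO and -0.000148 in Suv39h WT, in weak B 0.000316 and -0.000146, and in strong A -0.000445 and 9.32e-05. In weak A it was 0.000296 in Suv39h DKO and -0.000433 in Setdb1 KO. For each set the remaining pairs had the same sign as Suv39h DKO. For the 207 bins these were Suv39h WT (0.00188) and Setdb1 WT (0.00196). The signs of the class medians turn with the centring, so they give no direction. The differences of deep B, weak B and strong A are smaller than the SD of the class median over autosomes in the Suv39h DKO pair.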

How the results depend on the processing

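No paired analysis was possible because each group has 1 replicate number, beyond the background block that the limma fit already holds. The centring moved class medians, counts of changed bins and switches most, and the cause was not tested. With the implied mean added to both libraries, the median changes of deep B, weak B, weak A and strong A were 0.00185, 0.00192, 0.0019 and 0.00125, 1392 bins rose and 522 fell, and 3.74% of bins left B for A while 1.66% left A for B. With it subtracted from both, they were -0.00149, -0.00126, -0.00134 and -0.00204, with 393 and 1509 bins and 1.37% and 2.81%. With it added to Suv39h DKO + UNC and subtracted from Suv39h DKO, they were 0.014, 0.0141, 0.0143 and 0.0136, with 17229 and 55 bins and 14.4% and 0.121%. With these signs turned, they were -0.0134, -0.0137, -0.0139 and -0.0146, with 25 and 16999 bins and 0.108% and 13.7%. Classes drawn from Suv39h DKO alone gave a deep B median of 0.000918, but this library is also the subtracted side of the change, which by construction raises the median of its lowest bins. At 500 kb 14 bins rose and 19 fell, with 1.14% and 1.02% switching, and at a threshold of 0.02 28 rose and 43 fell. Removing the GC fit gave 5.72% and 5.88% switching, and bins at least 0.005 from 0 gave 0.64% and 0.552%. limma called 1 bin with a variance trend, 2 without the Setdb1 WT pair and 2 without the Setdb1 KO pair, and 0 in the other 7 alternatives. The test between backgrounds called 0 in 10 of 10. The rising share of the 207 duplicated bins was 13.5% after quantile normalization, 37.8% without chromosome 7, and 30.8% or 68.8% at 50% or 90% duplicated windows. Of 60 values for class medians 43 moved by less than the SD over autosomes, and 14 of 26 counts of changed bins and 8 of 22 switch shares stayed near the reported value. The named regions were recomputed only with root mean square scaling and with the implied mean added to or subtracted from both libraries. They kept their direction in all 48 values. Their bins were chosen for changes of at least 0.01, which left these settings little room to turn them. The centrings with opposite signs in the 2 libraries were not recomputed for the regions.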

Other observations

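Across the whole distribution the scores of Suv39h DKO + UNC were narrower than those of Suv39h DKO on 19 of 19 autosomes, with a ratio of SDs from 0.978 to 0.997. Adjacent bins shared little of the change. The correlation of the change between neighbouring bins was 0.158 in the Suv39h DKO pair, against 0.0496 in the Suv39h WT pair, 0.429 in the Setdb1 WT pair and 0.0719 in the Setdb1 KO pair.

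Bins chosen for a change must differ between the 2 libraries, so the next values are a description only. In the 788 falling bins with under 20% duplicated windows, Suv39h DKO lay a median of 0.00612 above the mean of the 6 libraries outside the pair while Suv39h DKO + UNC stood at -0.00716 from it. In the 611 rising bins with under 20% duplicated windows the corresponding values were -0.00602 and 0.00591. In the 27 falling bins with at least 70% duplicated windows they were 0.00789 and -0.00971. The Zfp980 bin on chromosome 4 (88.4% duplicated windows) rose by 0.0304, from -0.0644 to -0.0340, and the other 6 libraries ran from -0.0529 to -0.0317.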
